A study of Drosophila melanogaster with 14 samples.

Results

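The cytosolic ribosomal protein genes of Drosophila melanogaster encode the protein part of the ribosomes that translate nuclear messages. They were chosen by symbol alone from the raw count table. Taken were the rows whose names mark a cytosolic protein of the large subunit (RpL and RpLP symbols) or the small subunit (RpS symbols, and sta, the fly gene of RpSA). Left out were 9 genes (RpS5a, RpS5b, RpS10a, RpS10b, RpS19a, RpS19b, RpL10Aa, RpL10Ab and RpL22). This gave 79 of 17868 genes, 47 of the large and 32 of the small subunit, with no measured value used in the choice.

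A ribosome needs its proteins in equal numbers, so their genes are transcribed strongly and largely in step in growing cells. In flies the growth regulators Myc and Tor promote ribosome production, and the loss of 1 copy of many of these genes gives the Minute phenotype of slow growth and thin bristles. Neural stem cells of the larval brain (neuroblasts) grow back to size between divisions, and ribosome production is high in them and declines in their neuronal progeny.

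The data are RNA-seq counts of type II neural stem cells, the neuroblasts that divide through intermediate progenitors. The 14 libraries were made from polyadenylated RNA amplified from 1-2k cells of larval brains, in 3 experiments with their own controls. The tested groups were GAF RNAi (3 libraries), HDAC1 RNAi (2) and Osa overexpression (2), and each was set against as many control libraries, which the labels give as WT. GAF (GAGA factor, gene Trl) is a transcription factor that binds GA-rich DNA, HDAC1 is a histone deacetylase, and Osa is a subunit of the Brahma chromatin remodelling complex. The labels give no driver, transgene, age or sex for any group, and do not say whether libraries of a group come from different animals. The p-values therefore set a difference between groups against the scatter of these libraries, and that scatter may be technical. The series' design text speaks of an Osa knockdown where the sample labels say overexpression, and the labels were followed here.

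Libraries held 31788351 to 51505597 counts. The osa gene had 299 and 288 CPM (counts scaled to a common library total) in Osa overexpression libraries, against 146 and 149.6 CPM in their controls (log2 fold change 0.99 ± 0.13 SE, edgeR adjusted p = 0.0029). HDAC1 had 59.7 and 34.7 CPM in HDAC1 RNAi libraries, against 70.9 and 79.2 CPM in controls, which was not called (-0.67 ± 0.39, edgeR adjusted p = 0.576). Trl was not called lower in the libraries labelled GAF RNAi (5.18, 5.96 and 4.48 CPM, against 6.29, 5.50 and 4.71 CPM in controls), with a log2 fold change of -0.08 ± 0.25 and an edgeR adjusted p of 0.843. Other genes share 77.8% of the exonic bases of Trl, so its count does not check the label well, and any direction in that experiment rests on the label. The neuroblast gene mira was present in every library, at 42.5 to 379 CPM. dpn, another neuroblast gene, was lower in the HDAC1 experiment (2.00 and 6.69 CPM in RNAi and 8.20 and 8.66 CPM in control libraries) than in the other experiments, where it had 33.6 to 66.2 CPM.

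Levels were compared between genes per kilobase (kb) of exon. The median gene of the set had 1466 CPM per kb in the GAF controls, 1920.2 in the HDAC1 controls and 1642 in the Osa controls. Ranked over the 3 control groups, RpL27A, the stalk protein gene RpLP1, RpL13A and RpL40 were among the 5 highest. RpL27A reached 7727 CPM per kb in the GAF controls, 11430.3 in the HDAC1 controls and 6825 in the Osa controls. The lowest were second copies of a gene (RpL37b, RpS28a, RpS15Ab and RpS14b) and RpS9, whose level was 248, 248 and 285 CPM per kb in the same order of controls. Other genes share 50.3% of the exonic bases of RpS9, so its count is uncertain. RpL37b and RpS28a were nearly silent, at 0.0372 to 0.297 and 0.387 to 1.09 CPM per kb in controls.

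The order of the genes was similar in the 3 control groups (Spearman's rho 0.90 to 0.96 over 79 genes), although some genes differed several-fold between experiments. RpL41, the shortest ribosomal protein, had 11392 CPM per kb in the HDAC1 controls, 4391 in the Osa controls and 3366 in the GAF controls. RpL7A had 1496, 794 and 431 CPM per kb in that order. RpL15 went the other way, with 2479 CPM per kb in the HDAC1 controls, 3746 in the Osa controls and 5639 in the GAF controls. The controls were all labelled WT, so levels are not compared further across experiments.

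Ribosomal protein genes took a smaller share of all counts in Osa overexpression and HDAC1 RNAi libraries than in any of their controls. In the Osa experiment the share was 7.99% and 8.66% in overexpression libraries, against 11.3% and 12.5% in controls. In the HDAC1 experiment it was 10.9% and 10.8% in RNAi libraries, against 15.3% and 15.4% in controls. The libraries labelled GAF RNAi had 10.6%, 11.8% and 11.0%, against 13.3%, 11.7% and 11.7% in their controls, and these groups overlapped.

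The mean share was 8.32% ± 0.471 in Osa overexpression and 11.9% ± 0.843 in control libraries (SD, n = 2 each), 0.701 times the control. In the HDAC1 experiment it was 10.8% ± 0.0300 in RNAi and 15.3% ± 0.0544 in control libraries (SD, n = 2 each), 0.707 times the control. Both differences had an exact permutation p of 0.33 (two-sided), the smallest that 2 against 2 libraries allow. The GAF shares averaged 11.1% ± 0.631 in RNAi and 12.2% ± 0.892 in control libraries (SD, n = 3 each), with an exact permutation p of 0.3 where 0.1 is the smallest possible. Over the 15 such tests of shares and ratios, the Benjamini-Hochberg adjusted p was 0.417 for each of these 3. In bulk samples fewer cells of a type and less RNA per cell cannot be told apart.

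**Figure D1:**
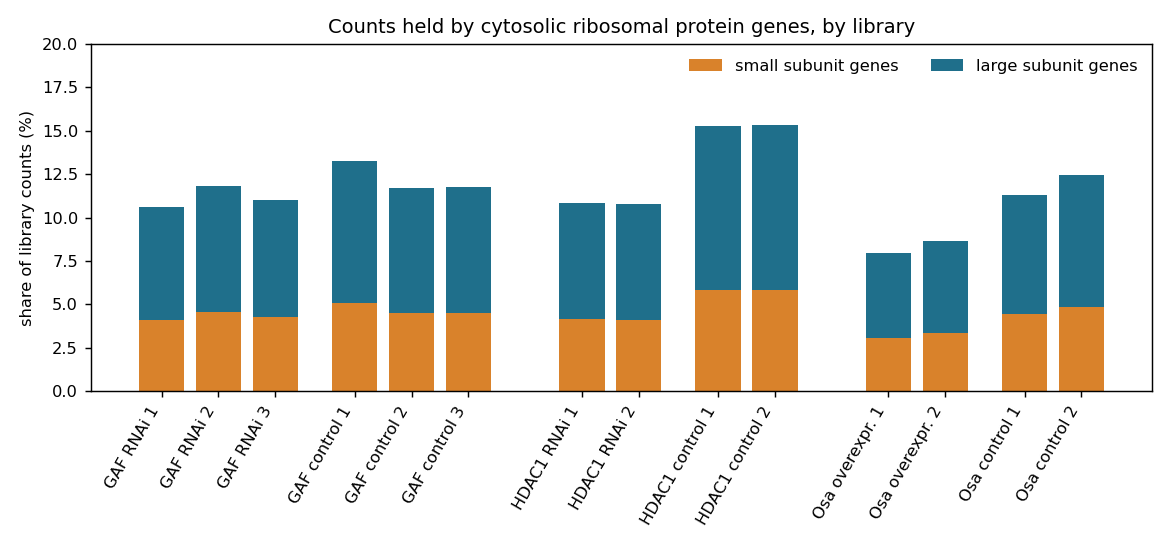
Share of library counts (%) held by small subunit genes (orange) and large subunit genes (blue), stacked, for each of the 14 libraries. Both Osa overexpression libraries (7.99% and 8.66%) and both HDAC1 RNAi libraries (10.9% and 10.8%) are below their own controls, while the GAF groups overlap.

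Under Osa overexpression all 77 ribosomal protein genes that could be tested fell, 46 of the large and 31 of the small subunit. Over all 9156 genes tested, 12.2% were called lower (edgeR quasi-likelihood test, Benjamini-Hochberg adjusted p under 0.05). The log2 fold changes ran from -1.08 (RpS16) to -0.53 (RpL4), with a median of -0.82, beside a median of 0.05 over all genes tested. Adjusted p-values were between 0.00425 and 0.0274. The changes of the set were narrow, with an SD of 0.113 over 77 genes where all genes tested had 0.925. No gene of the set was called higher by edgeR, where 8.86% of all genes were. None was higher at an unadjusted p under 0.05, by DESeq2 or by limma-voom, where 17.9%, 12.3% and 6.78% of all genes were. In all 77 genes both overexpression libraries were below both controls, which held for 32.1% of all genes tested.

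The 6 largest falls came from both subunits. RpS16, whose tail reaches the tRNA in the P site, had 388 and 484 CPM in Osa overexpression libraries, against 816 and 1025 CPM in controls (-1.08 ± 0.17). RpL32, often used in flies as a reference gene for quantitative PCR, had 371 and 445 CPM, against 719.9 and 880.4 CPM in controls (-0.97 ± 0.16). RpS21, a small subunit protein with no bacterial counterpart, had 248 and 284 CPM, against 466 and 569 CPM in controls (-0.96 ± 0.15). In each of these the higher overexpression library stayed below the lower control.

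RpL11, which joins the ribosome together with RpL5 and the 5S ribosomal RNA, had 483 and 601 CPM in Osa overexpression libraries, against 988 and 1113 CPM in controls (-0.95 ± 0.15). RpL10, a late-joining protein that completes the large subunit, had 1365 and 1671 CPM, against 2796 and 3054 CPM in controls (-0.95 ± 0.15). RpS20, of the head of the small subunit, had 847 and 928 CPM, against 1607 and 1782 CPM in controls (-0.93 ± 0.14). Adjusted p-values of these 6 genes by edgeR were 0.00425 to 0.00511. The smallest fall was that of RpL4, a protein that lines the exit tunnel, with 1034 and 1017 CPM in overexpression libraries, against 1367 and 1596 CPM in controls (-0.53 ± 0.14, edgeR adjusted p = 0.0269). RpS29, a zinc-binding small subunit protein, came next at -0.56 ± 0.15.

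The Osa count depended on single control libraries: 40 of 77 genes were called lower without the second control and 60 of 78 without the first, where 3.86% and 3.63% of all genes tested were. Without the first overexpression library 75 of 78 were called lower, beside 10.7% of all genes, and without the second 77 of 77, beside 18.8%. In each such fit the lone library of a group is assumed to vary like the other group. The median log2 fold change stayed between -0.90 and -0.73. Scaled by library size alone, 61 genes were called lower, beside 5.88% of all genes, and the median was -0.55, but the median of all genes was then 0.32. The set was 0.87 below the median of all genes on the log2 scale under each of the 4 scalings tried.

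In the HDAC1 experiment the genes were lower in RNAi than in control libraries by about as much, but none passed the test. Of 78 tested genes 77 had a log2 fold change below 0, where 46.7% of all genes tested did, and the median was -0.69, beside 0.06 over all genes. By edgeR 0 of 78 were called lower, where 0.0971% of all 10299 genes tested were, and 0 were called higher, where 0.0% were. At an unadjusted p under 0.05 there was 1 (RpL12), where 4.36% of all genes were lower. DESeq2 and limma-voom called 0 lower, where they called 1.28% and 0.0194% of all genes. Both RNAi libraries were below both controls in 76 genes, which held for 20.5% of all genes tested.

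RpL12, at the base of the stalk that binds elongation factors, had 483 and 658 CPM in HDAC1 RNAi libraries, against 1220.5 and 1103 CPM in controls (-1.03 ± 0.46, edgeR adjusted p = 0.416). RpS21 had 203 and 351 CPM in HDAC1 RNAi libraries, against 573 and 516 CPM in controls (-0.98 ± 0.47, edgeR adjusted p = 0.457). RpL41 had the lowest value of the set, with 921 and 2391 CPM in HDAC1 RNAi libraries, against 3968 and 3323 CPM in controls (-1.14 ± 0.56, edgeR adjusted p = 0.478). In all 3 genes the first RNAi library was the lowest. The only gene above 0 was the nearly silent copy RpS28a, with 0.558 and 1.65 CPM in RNAi libraries, against 0.162 and 0.499 CPM in controls (1.72 ± 0.93, edgeR adjusted p = 0.528).

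The 2 HDAC1 RNAi libraries differed from each other: the median gene of the set lay 0.98 below the control mean in the first and 0.49 below it in the second, on the log2(CPM + 0.5) scale. The biological coefficient of variation of the fit was 0.390, beside 0.246 in the GAF and 0.216 in the Osa fit. Without the first RNAi library 27 of 78 genes were called lower, where 6.75% of all genes tested were. Without the second 75 of 78 were called lower, where 15.3% of all genes were. Without either control the count was 0, where 0.22% and 0.266% of all genes were called lower. In each of these 4 fits the lone library of a group is assumed to vary as the other group does. Scaled by library size alone the set lay 0.79 below the median of all genes on the log2 scale, and 0.74 below it in the fit reported.

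**Figure D2:**
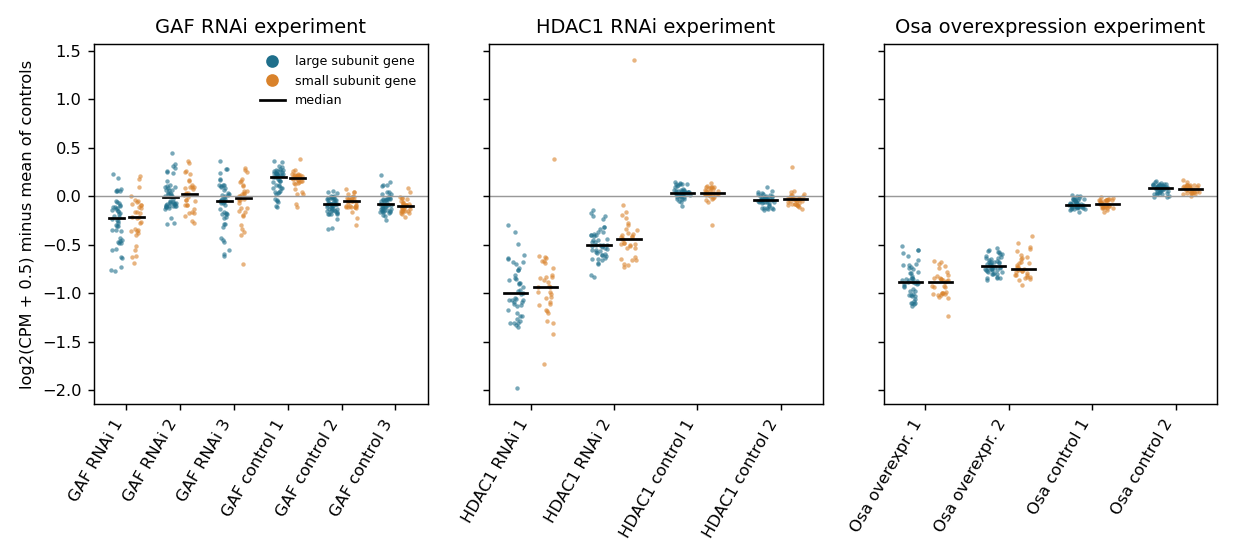
Each point is 1 ribosomal protein gene in 1 library, as log2(CPM + 0.5) minus the mean of the controls of its experiment, with black bars at the median of the large subunit (blue) and small subunit (orange) genes. The medians of all genes of the set are -0.98 and -0.49 in the HDAC1 RNAi libraries and -0.88 and -0.73 in the Osa overexpression libraries, while the first GAF control lies 0.19 above the mean of its group; the small subunit points far above the rest in the HDAC1 RNAi libraries are RpS28a.

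In the libraries labelled GAF RNAi 7 of 77 tested genes fell, or 9.09% of the set, where 15.9% of all 9055 genes tested fell. They were RpL7A, RpLP0, RpL6, RpS6, RpS9, RpL13A and RpS2, with log2 fold changes from -0.45 to -0.37. The median of the set was -0.12, beside 0.00 over all genes. It was -0.02 without the first control and -0.04 with a filter of at least 5 CPM. Of the 77 genes, 53 had a log2 fold change below 0 and 24 above, where 49.8% of all genes tested were below 0. By edgeR 0 of 77 were called higher, where 12.5% of all genes were. At an unadjusted p under 0.05, 4 were higher and 14 lower, where 18.5% and 21.6% of all genes were, and DESeq2 called 1 higher and limma-voom 0, where they called 14.7% and 13.1% of all genes. In 12 genes the RNAi libraries were below the controls without overlap, where 22.2% of all genes were.

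RpL7A, a large subunit protein that binds ribosomal RNA, had 332, 526 and 385 CPM in libraries labelled GAF RNAi, against 549, 537 and 615 CPM in controls (-0.45 ± 0.15, edgeR adjusted p = 0.0432). RpLP0, the core of the stalk, had 1409.7, 1706 and 1508 CPM in GAF RNAi libraries, against 1918, 2008 and 2282 CPM in controls (-0.43 ± 0.12, edgeR adjusted p = 0.02). RpS6, the substrate of S6 kinase in the Tor pathway, had 1362, 1816 and 1589.9 CPM in GAF RNAi libraries, against 2207, 2026 and 2068 CPM in controls (-0.40 ± 0.13, edgeR adjusted p = 0.0301). The groups did not overlap in any of the 3, and the second RNAi library was the nearest to the controls in each. RpL6 had 726, 1102 and 889.9 CPM in GAF RNAi libraries, against 1116, 1202 and 1301 CPM in controls (-0.41 ± 0.15). RpL13A, whose mammalian counterpart also silences translation outside the ribosome, had 3394, 4045 and 3975 CPM, against 5263, 4768 and 4821 CPM in controls (-0.38 ± 0.12). Again the groups did not overlap, by a small margin in RpL6. RpS9 (-0.39 ± 0.12) and RpS2 (-0.37 ± 0.13) differed by like amounts, and the edgeR adjusted p-values of these 4 were 0.0245 to 0.0498. RpS6 and RpS9 share 16.9% and 50.3% of their exonic bases with other genes.

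On the other side, RpL34a had 353, 379 and 386 CPM in libraries labelled GAF RNAi, against 324, 309.9 and 269 CPM in controls, without overlap (0.31 ± 0.11, edgeR adjusted p = 0.0596). It passed the test with DESeq2 (adjusted p = 0.0463). RpL41 had 1221, 1460.5 and 1297 CPM in GAF RNAi libraries, against 1249.8, 970.4 and 1011 CPM in controls, with overlap (0.30 ± 0.13, edgeR adjusted p = 0.0995). RpS15Ab, a second copy of RpS15Aa, had 207, 231 and 216 CPM in GAF RNAi libraries, against 197, 188 and 155 CPM in controls, without overlap (0.28 ± 0.12, edgeR adjusted p = 0.11).

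The GAF count, too, moved with single libraries. No gene of the set was called lower by edgeR without the first or the third RNAi library or the third control, where 9.88%, 10.9% and 10.6% of all genes were. Without the second control 2 were (10.5% of all genes), without the first control 7 (20.5%) and without the second RNAi library 10 (11.6%). Without the first control 5 were called higher, where 15.3% of all genes were. A fit of all 14 libraries called 0 lower and 0 higher in the GAF contrast, where 6.77% and 6.21% of all genes were.

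**Figure D3:**
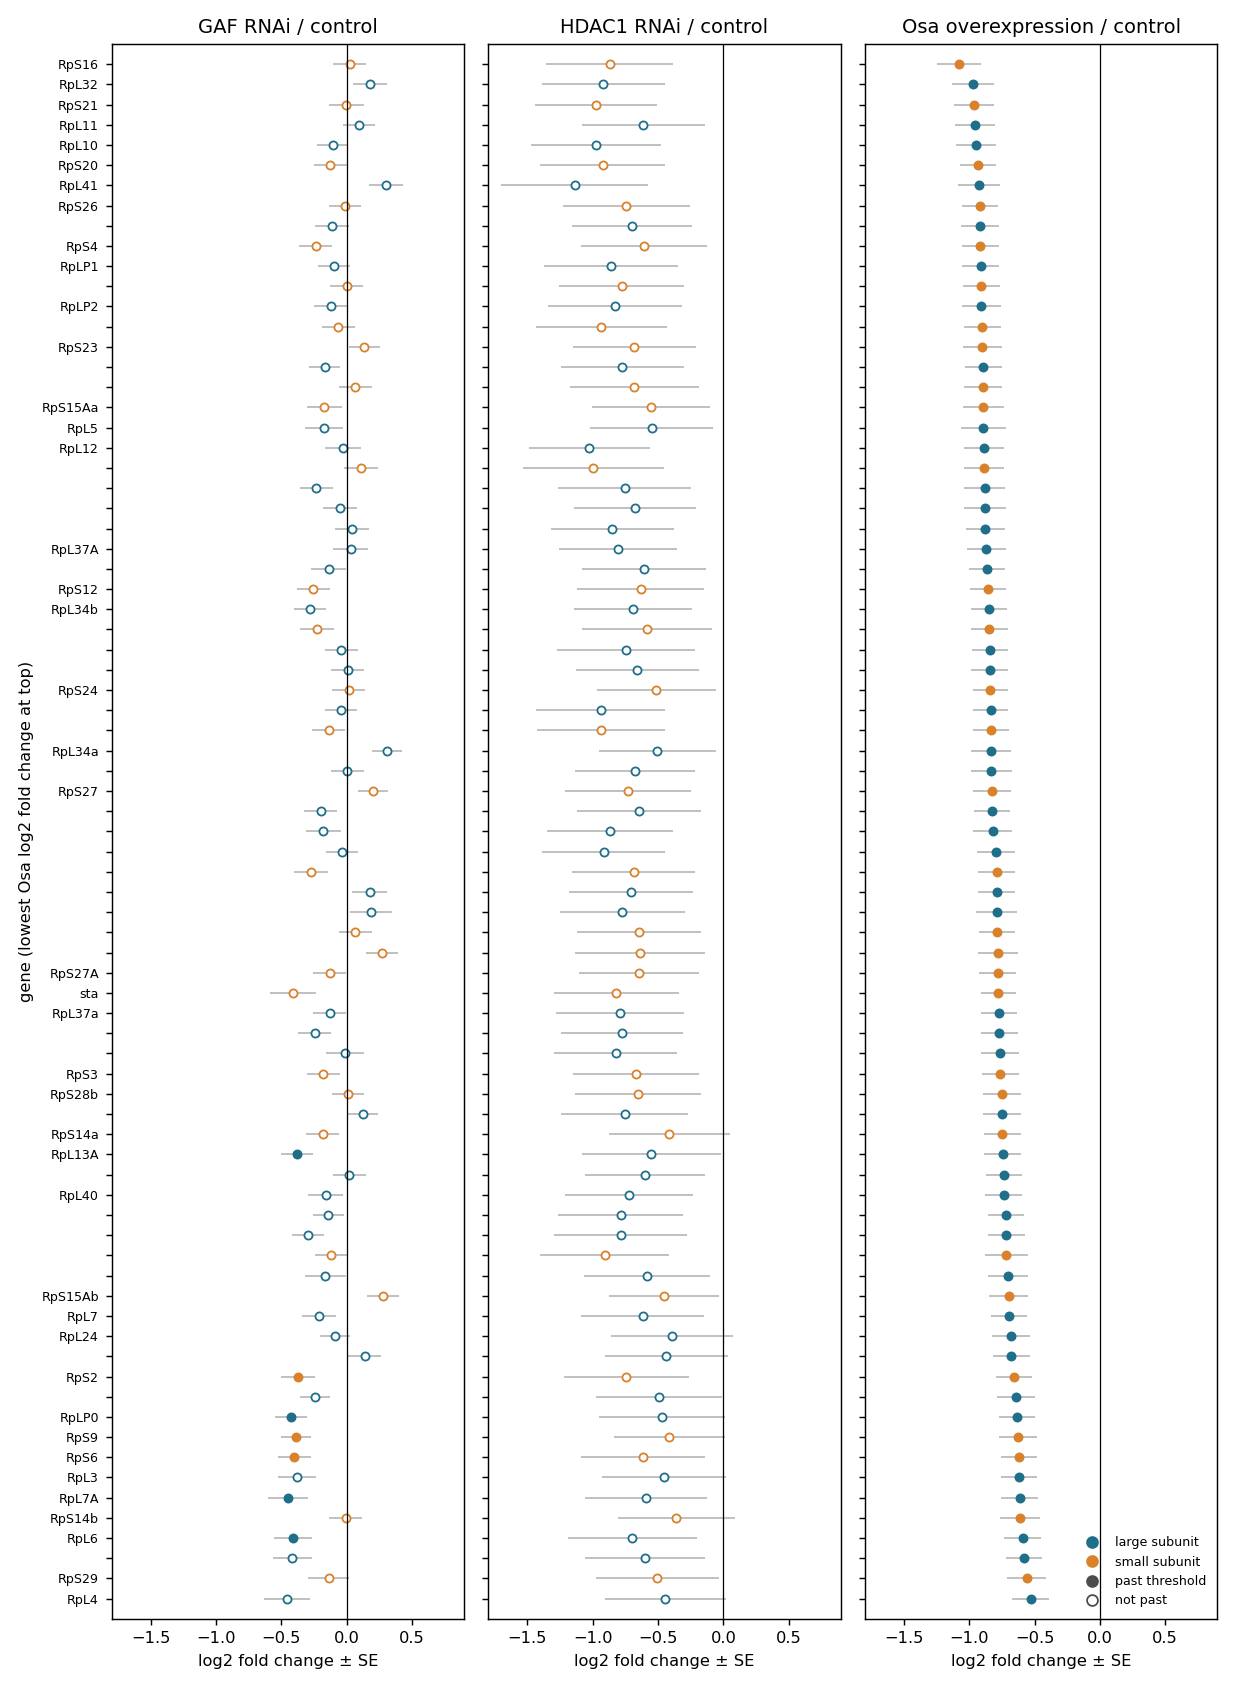
Log2 fold change ± SE of the 77 genes tested in all 3 experiments, each against its own controls, in the order of the Osa value; only genes chosen for naming are labelled, filled points pass the threshold, blue marks the large and orange the small subunit. All 77 points are filled and below 0 in the Osa panel, none is filled in the HDAC1 panel, and 7 are filled in the GAF panel, with Osa values between -0.74 and -0.59.

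Large and small subunit genes had like medians within each experiment. The median log2 fold change was -0.81 for 46 large and -0.83 for 31 small subunit genes in the Osa experiment, -0.70 for 46 and -0.66 for 32 in the HDAC1 experiment, and -0.12 for both in the GAF experiment. Counts of the large subunit genes summed to 1.55 to 1.65 times those of the small subunit genes in every library. The ratio was 1.602 and 1.564 in Osa overexpression libraries, against 1.548 and 1.563 in controls, a mean difference of 0.025 on the log2 scale with an exact permutation p of 0.33 (n = 2 each). Without the first or the second overexpression library that difference was 0.0078 or 0.042. In the GAF experiment the difference was -0.024 (exact permutation p = 0.3, n = 3 each) and in the HDAC1 experiment 0.0074 (exact permutation p = 1, n = 2 each).

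Genes were also read by their roles. Of the stalk, RpLP1 had 2018 and 2141 CPM in Osa overexpression libraries, against 3672 and 4159 CPM in controls (-0.91 ± 0.14). RpLP2 changed by -0.91 ± 0.15, RpL12 by -0.89 ± 0.15 and RpLP0 by -0.64 ± 0.14. The stalk genes had -0.86 (RpLP1), -0.83 (RpLP2), -1.03 (RpL12) and -0.47 (RpLP0) in the HDAC1 experiment, none past the threshold. In the GAF experiment RpLP0 passed and the other 3 had -0.12 to -0.03. RpLP0 thus had the mildest value of the 4 in the Osa and HDAC1 experiments and the lowest in the GAF experiment; these differences between genes were not tested.

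RpL5, the partner of RpL11, had 1086 and 1486 CPM in Osa overexpression libraries, against 2353 and 2417 CPM in controls (-0.89 ± 0.17). RpL40 and RpS27A, made as fusions with ubiquitin, changed by -0.74 ± 0.14 and -0.78 ± 0.14 under Osa overexpression. They had -0.72 ± 0.49 and -0.65 ± 0.46 in the HDAC1 experiment. In the GAF experiment they had -0.16 ± 0.13 and -0.13 ± 0.13. RpS12, which in flies is needed for the elimination of Minute cells by their neighbours, had 932 and 1026 CPM in Osa overexpression libraries, against 1719 and 1823 CPM in controls (-0.86 ± 0.14). RpS26, at the exit of the mRNA channel, changed by -0.92 ± 0.14 under Osa overexpression and had -0.01 ± 0.12 in the GAF experiment.

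RpL3, next to the peptidyl transferase centre, RpS2 and RpS3, at the entry of the mRNA channel, and sta fell by 0.62 to 0.78 on the log2 scale under Osa overexpression. sta (the laminin receptor protein of the small subunit) had 726, 1188 and 722 CPM in libraries labelled GAF RNAi, against 1186, 1160.0 and 1165 CPM in controls (-0.41 ± 0.17, edgeR adjusted p = 0.0981). Its second GAF RNAi library was at the control level and the other 2 were well below it. RpL3 behaved likewise, with 582, 859.9 and 649.7 CPM in GAF RNAi libraries, against 979, 812 and 932 CPM in controls (-0.38 ± 0.15, edgeR adjusted p = 0.0685). RpL7, RpL24 and RpL37A changed by -0.70 ± 0.14, -0.68 ± 0.14 and -0.87 ± 0.15 under Osa overexpression, and had -0.21 ± 0.13, -0.09 ± 0.11 and 0.03 ± 0.13 in the GAF experiment.

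Some ribosomal proteins are encoded by 2 genes, of which 1 carried most of the counts. Reads that fit both copies could have been split or lost in counting, so these shares are uncertain. RpL34a held 35.1%, 31.1% and 34.4% of the counts of the RpL34a and RpL34b pair in libraries labelled GAF RNAi, against 25.3%, 27.1% and 22.7% in controls. The means were 33.5% ± 2.17 and 25% ± 2.2 (SD, n = 3 each), without overlap, with an exact permutation p of 0.1, the smallest possible here. RpS15Ab held 18.4% ± 0.893 of its pair in GAF RNAi and 14.2% ± 1.33 in control libraries (SD, n = 3 each), also without overlap (exact permutation p = 0.1). Over the 15 pair comparisons the Benjamini-Hochberg adjusted p of these was 0.375.

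In the Osa experiment the RpL34a share was 20.8% and 22.9% in overexpression libraries, against 21.1% and 22.1% in controls, so both copies were lower by like amounts (-0.83 ± 0.15 for RpL34a and -0.85 ± 0.14 for RpL34b). RpS15Ab held 18.1% and 17.0% of its pair in overexpression libraries, against 15.6% in each control. RpS14b held 15.7% and 16.2% in Osa overexpression libraries, against 14.3% and 15.2% in controls. RpS14a and RpS14b lie next to each other on the X chromosome in the BDGP6.54 annotation, RpS14a at 7933742 to 7934677 and RpS14b at 7934898 to 7935792, both on the plus strand. RpS28a held a mean of 0.110% of the counts of RpS28a and RpS28b in HDAC1 RNAi libraries and less in every other group. RpL37b held at most a mean of 0.00443% of its pair with RpL37a, in the HDAC1 controls.

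**Figure D4:**
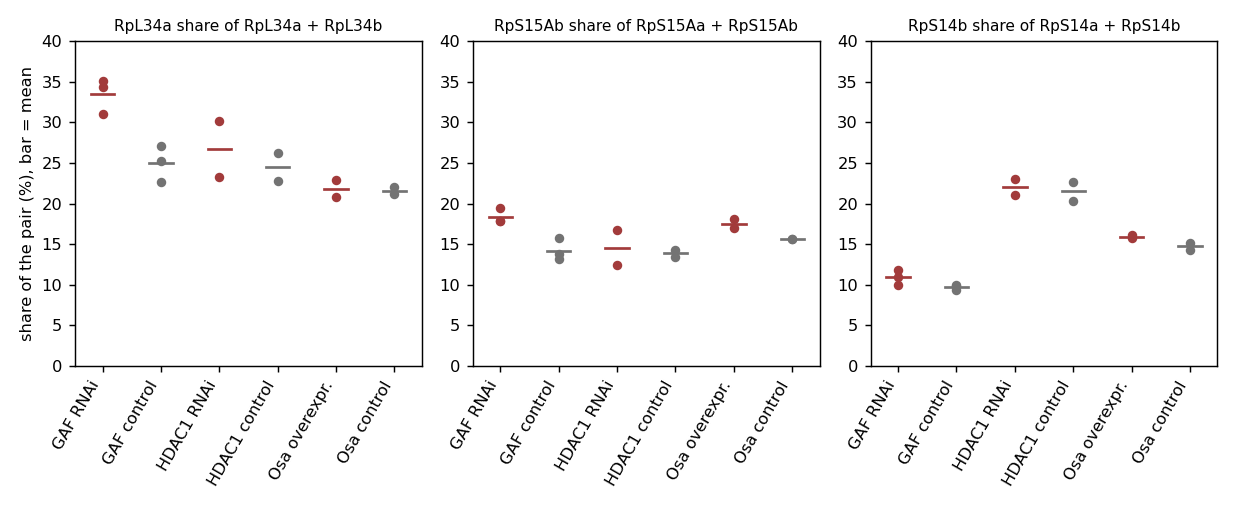
Share (%) of the counts of 3 gene pairs held by the copy with fewer counts, by group, with 1 point a library and a bar at the mean; red marks RNAi or overexpression and grey the controls. RpL34a and RpS15Ab hold larger shares in the 3 libraries labelled GAF RNAi (31.1% to 35.1% and 17.9% to 19.4%) than in their controls (22.7% to 27.1% and 13.2% to 15.7%).

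Transcript length went with the values in the GAF experiment. Over 77 genes the log2 fold change and log2 exonic bases had a Pearson r of -0.51 and a Spearman rho of -0.54, given as a description since the genes share libraries. The 7 genes called lower had 903 to 1328 exonic bases, with a median of 1195, beside 859 for the 70 not called. The 9 genes under 600 bases had a median log2 fold change of 0.04, the 37 genes of 600 to under 1000 bases -0.04, and the 29 genes of 1000 to under 2000 bases -0.18. Genes outside the set had medians in the same order across these classes (0.45, 0.17 and -0.09), but 0.13 in the longest class, which holds none of the set. Over all 8950 of them Pearson's r with length was -0.05. The part of length in the GAF values was not tested.

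The set lay below genes of like length in these classes in all 3 experiments. Under Osa overexpression the genes under 600 bases had a median of -0.79 where others of that length had -0.49, and those of 1000 to under 2000 bases had -0.76 where others had -0.16. Among genes of 500 CPM and over the median was -0.83 for 73 of the set and -0.41 for 243 others. In the HDAC1 experiment those medians were -0.70 for 73 of the set and -0.32 for 270 others. With length, the set had a Pearson r of 0.21 and a Spearman rho of 0.22 in the Osa experiment. Genes outside the set had 0.26 and 0.41 there. In the HDAC1 experiment the set had an r of -0.13 and a rho of 0.14, with RpS28a included. Genes outside it had 0.14 and 0.20 there.

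**Figure D5:**
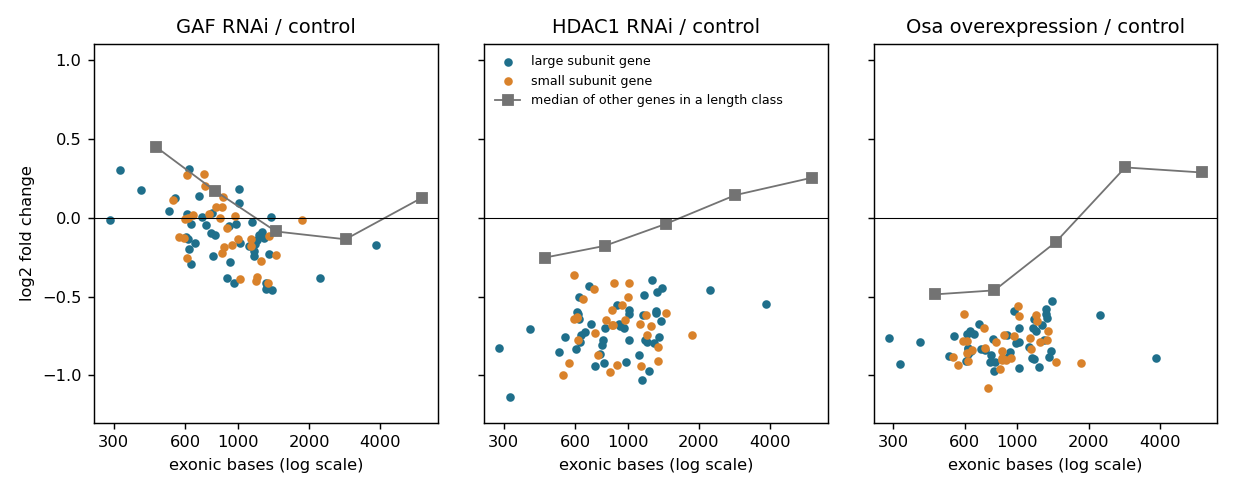
Log2 fold change against exonic bases (log scale) for large subunit (blue) and small subunit (orange) genes, with grey squares at the median of other genes in 5 length classes, drawn near the middle of each class; RpS28a (1.72 in the HDAC1 experiment) is left out. The set slopes down with length in the GAF panel and lies below the grey line in the HDAC1 and Osa panels.

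Position and neighbouring genes were also compared. Of the 79 genes, 11 are on the X chromosome, 17 on 2L, 19 on 2R, 13 on 3L, 18 on 3R and 1 (RpS3A) on 4. The Osa median was -0.75 over 11 X-linked and -0.83 over 66 autosomal genes, and 11 and 66 were called lower. Small nucleolar RNA genes or the like lie within 27 of the genes, and the Osa median was -0.82 with and -0.81 without them. The 9 genes that share over 10% of their exonic bases with another gene had an Osa median of -0.68, beside -0.83 for the other 68. For the GAF experiment the medians were 0.07 over 18 genes on 2R and -0.24 over 13 on 3L, -0.27 over the 9 overlapping genes and -0.11 over the other 68, and -0.17 with and -0.04 without a small RNA gene inside. These splits were not tested.

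The effects were set against each other in 1 fit of all 14 libraries. The GAF effect was higher than the Osa effect in all 78 genes of the set tested, by a median of 0.72. Over all 11181 genes tested it was higher in 5753, and the median was 0.03. By edgeR 5 of the 78 passed the test of the difference (RpL34a, RpL32, RpS27, RpS23 and RpL11). Of all genes tested 1.68% were called higher. RpL34a differed by 1.12 ± 0.26 (edgeR adjusted p = 0.0322) and RpL32 by 1.13 ± 0.26 (edgeR adjusted p = 0.0343). The zinc-binding RpS27 differed by 1.01 ± 0.24, RpS23 of the decoding centre by 1.01 ± 0.25 and RpL11 by 1.03 ± 0.25, with edgeR adjusted p-values of 0.0357, 0.0405 and 0.0409. RpS27 had 1372, 1541 and 1534 CPM in libraries labelled GAF RNAi and 1406, 1194 and 1264 CPM in their controls, and 827 and 906 CPM in Osa overexpression libraries and 1412 and 1664 CPM in theirs.

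No gene of the set was called lower, where 1.19% of all genes were. The count of 5 moved with single libraries. It was 0 without the second or the third GAF control or any 1 GAF RNAi library, where 0.917% to 1.13% of all genes were called higher. It was 22 without the first GAF control, where 2.28% of all genes were called higher. It moved as well without any 1 library of the HDAC1 or Osa experiments, but these fits left 1 library in a group. At an unadjusted p under 0.05, 60 genes differed (12.2% of all genes higher), and DESeq2 called 41 (6.42% of all genes) and limma-voom 11 (1.78%).

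Between the GAF and HDAC1 effects 0 of 78 genes passed by edgeR, where 1.09% of all genes were called higher and 2.11% lower, with 39 at an unadjusted p under 0.05 (7.45% of all genes higher), 16 by DESeq2 (3.25%) and 2 by limma-voom (1.4%). The GAF effect was higher by a median of 0.51, beside -0.14 over all genes. RpL32 came nearest at 0.99 ± 0.26 (edgeR adjusted p = 0.0566), followed by RpL41 at 1.36 ± 0.37, RpS27 at 0.83 ± 0.24 and RpL12 at 0.89 ± 0.26 (edgeR adjusted p = 0.0632, 0.0774 and 0.0817). The count was 3 without the first GAF control, where 1.3% of all genes were called higher and 2.13% lower. It moved as well without either HDAC1 RNAi library, but these fits left 1 library in that group. Between the HDAC1 and Osa effects 0 of 78 passed by edgeR, where 0.0% of all genes were called higher and 0.00894% lower. By limma-voom 0 passed too, beside the same shares of all genes. DESeq2 called 0 of the set, but 0.42% of all genes as higher and 0.241% as lower. Before adjustment 0 genes of the set had a p under 0.05, beside 5.38% of all genes with a higher and 2.74% with a lower effect. The median difference was 0.20, beside 0.18 over all genes, and RpS24 came nearest at 0.43 ± 0.24 (edgeR adjusted p = 0.696). RpS14a, RpS4 and RpS15Aa followed at 0.43 ± 0.26, 0.40 ± 0.25 and 0.44 ± 0.28, so differences of that size could not be told from the spread.

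Gene by gene, the HDAC1 and Osa log2 fold changes had a Pearson r of 0.58 over 77 genes, and the GAF and Osa values -0.47. These experiments share no controls. The points share transcript length and level, and r is given as a description. RpS16, RpL32 and RpL11, among the largest falls under Osa overexpression, had 0.02 ± 0.12, 0.18 ± 0.13 and 0.09 ± 0.12 in the GAF experiment. The 7 genes that fell in the libraries labelled GAF RNAi had a median Osa value of -0.62, beside -0.83 for the other 70.

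Other genes of ribosome production were read from fixed lists, chosen by name but with earlier results of these data known. Some of the list genes given with values were picked by their p or after their values were seen. Of 16 tested genes for the maturation and export of subunits, 12 fell and 0 rose in libraries labelled GAF RNAi. Under Osa overexpression 5 fell and 0 rose, and none passed in the HDAC1 experiment. Over all genes tested, 15.9% fell and 12.5% rose in libraries labelled GAF RNAi, and 12.2% fell and 8.86% rose under Osa overexpression. RpLP0-like, a ribosome assembly relative of RpLP0, had 101 and 123 CPM in Osa overexpression libraries, against 259 and 274 CPM in controls (-1.25 ± 0.15, edgeR adjusted p = 0.0018). Rack1, a scaffold on the small subunit, changed by -0.86 ± 0.15 and eIF6, which keeps new large subunits from joining, by -0.73 ± 0.13 there. In the GAF experiment the assembly gene Non1 changed by -1.43 ± 0.11 and LTV1, a small subunit export factor, by -1.33 ± 0.12, more than any ribosomal protein gene there. Of 11 genes for the nucleolus and RNA polymerase I, 9 fell in libraries labelled GAF RNAi and 6 under Osa overexpression. Of all genes 15.9% and 12.2% fell there.

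Of 17 genes for the transcription of ribosomal protein genes and growth, 7 fell and 0 rose in libraries labelled GAF RNAi. Under Osa overexpression 5 fell and 2 rose. The shares of all genes that fell and rose were 15.9% and 12.5% for GAF, and 12.2% and 8.86% for Osa. Myc had 184 and 305 CPM in Osa overexpression libraries, against 611 and 619 CPM in controls (-1.33 ± 0.22, edgeR adjusted p = 0.0067). In the GAF experiment Myc had 493, 557 and 598 CPM in RNAi libraries, against 1815, 1469 and 1245 CPM in controls, a change of -1.46 ± 0.15. In the HDAC1 experiment it had 137 and 68.6 CPM in RNAi libraries, against 224 and 206 CPM in controls, and was not called (-1.07 ± 0.46, edgeR adjusted p = 0.384). The groups did not overlap in any of the 3 experiments. Max, the partner of Myc, fell in the GAF (-0.44 ± 0.11) and Osa (-0.62 ± 0.16) experiments. The 2 that rose under Osa overexpression were Dref (0.50 ± 0.13) and pzg (1.18 ± 0.31).

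Of 11 elongation and termination genes, 5 fell and 1 rose under Osa overexpression, and 5 fell and 1 rose in libraries labelled GAF RNAi. For this and the stress list below, 12.2% of all genes fell and 8.86% rose under Osa overexpression. In libraries labelled GAF RNAi 15.9% fell and 12.5% rose. eEF1beta changed by -0.84 ± 0.14 and -0.91 ± 0.15 in these 2 experiments, and eEF1alpha1 by -0.55 ± 0.14 and -0.81 ± 0.14. The gene that rose in both was eEF1alpha2, by 0.71 ± 0.16 and 1.96 ± 0.40. Of 12 genes of the response to ribosomal stress, 3 fell and 1 rose under Osa overexpression, and 4 fell and 0 rose in libraries labelled GAF RNAi. Xrp1, the transcription factor of the Minute response, had -0.23 ± 0.15 and 0.15 ± 0.11 and passed in neither. In the HDAC1 experiment 0 genes of these 5 lists passed by edgeR, where 0.0971% of all genes fell and 0.0% rose.

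Markers of cell types moved in the same libraries, and their part in the results was not tested. Neuroblast markers (10 genes) summed to 1431 and 1442 CPM in Osa overexpression libraries, against 2023 and 2238 CPM in controls. They summed to 507 and 690.0 CPM in HDAC1 RNAi libraries, against 1571 and 1526 CPM in controls. In GAF RNAi libraries the sum was 1591 to 1799 CPM, against 1543 to 1796 CPM in controls. Of these 10 genes, 3 were called lower and 2 higher under Osa overexpression, where 12.2% and 8.86% of all genes were. In the GAF experiment 2 were called lower and 2 higher, where 15.9% and 12.5% of all genes were. In the HDAC1 experiment no gene of the cell type lists was called, and all 10 neuroblast genes were below 0. Of the intermediate progenitor markers (8 genes) 7 were called higher under Osa overexpression, where 8.86% of all genes were. In the GAF experiment all 8 were called higher, where 12.5% of all genes were. These markers summed to 839 and 1140.2 CPM in Osa overexpression libraries, against 297 and 336 CPM in controls. They summed to 231 and 548 CPM in HDAC1 RNAi libraries, against 104 and 161 CPM in controls, and to 176 to 225 CPM in GAF RNAi libraries, against 64.7 to 102 CPM in controls.

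Of the early neuron markers (8 genes) 7 were called higher in the GAF experiment, where 12.5% of all genes were. Under Osa overexpression 4 were, where 8.86% of all genes were. These markers summed to 2899 and 3713 CPM in HDAC1 RNAi libraries, against 1269.7 and 1346 CPM in controls. They summed to 1606 and 1666 CPM in Osa overexpression libraries, against 1032 and 1086 CPM in controls, and to 1009 to 1618 CPM in GAF RNAi libraries, against 388 to 699.9 CPM in controls. Of the mature neuron markers (12 genes) 9 were called higher in the GAF experiment, where 12.5% of all genes were. Under Osa overexpression 3 were, where 8.86% of all genes were. These markers summed to 308 to 403 CPM in GAF RNAi libraries, against 155 to 185 CPM in controls. They summed to 1373 and 1508 CPM in HDAC1 RNAi libraries, against 842 and 715 CPM in controls, and to 2146 and 1960.0 CPM in Osa overexpression libraries, against 1782 and 1317 CPM in controls.

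Of the glial markers (9 genes) 3 were called higher and 2 lower in the GAF experiment, where 12.5% and 15.9% of all genes were. The glial median log2 fold change was 1.00. The list nevertheless summed to 177 to 215 CPM in GAF RNAi libraries, against 702 to 792 CPM in controls. Most of that sum was nrv2, with a mean of 45.9 CPM in GAF RNAi and 598 CPM in control libraries. The glial list summed to 683 and 308 CPM in HDAC1 RNAi libraries, against 389 and 264 CPM in controls, and to 654 and 727 CPM in Osa overexpression libraries, against 613 and 509 CPM in controls. The defining glial gene repo had 0.134 to 5.71 CPM, and the blood cell gene Hml 0 to 3.04 CPM. The blood cell list summed to at most 18.8 CPM, the muscle list to at most 14.1 and the fat body list to at most 31.7. Counts of the mitochondrial genome were 9.55% to 11.0% in libraries labelled GAF RNAi and 5.78% to 7.41% in their controls, 4.12% and 5.82% in Osa overexpression libraries and 6.01% and 5.53% in theirs, and 2.36% and 0.239% in HDAC1 RNAi libraries and 0.570% and 0.368% in theirs.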

How the data were processed

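The deposited table holds raw counts per gene for 14 libraries, which the authors made from reads aligned to dm6. Per the submitters' processing notes, the tools were featureCounts 2.0.3, HISAT2 2.2.1, Trim Galore 0.6.10 and SAMtools 1.6. Per the labels' protocols, complementary DNA was amplified with Discover-sc WTA Kit V2 and made into libraries with TruePrep DNA Library Prep Kit V2. Not given in the sources used here are the annotation and the treatment of read pairs and of reads with several matches. Since the library kit leaves strand unmarked, overlapping genes cannot be told apart. Of the 79 genes, 25 share exonic bases with another gene, 9 of them over 10%. Names, lengths and overlaps came from the BDGP6.54 annotation, where RpL37a and RpL37b stand under other current symbols.

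Each experiment was fitted on its own with edgeR 4.0.16 in R 4.3.3 (quasi-likelihood test, robust, TMM scaling, genes kept with a minimum count of 10 and a total of 15), and p-values were adjusted by Benjamini-Hochberg over all genes tested, with a threshold of 0.05. The SE of a log2 fold change is its size divided by the root of the F statistic. Of 79 genes, 77 were kept in the GAF and Osa fits and 78 in the HDAC1 fit; RpL37b was left out of all 3 and RpS28a of the GAF and Osa fits. CPM are scaled by TMM within an experiment, and shares are of raw totals. Shares and ratios were compared with two-sided exact permutation tests over libraries (scipy 1.17.1). Effects were contrasted in 1 fit of all 14 libraries. Alternatives were DESeq2 1.42.0, limma 3.58.1 (voom), other scalings and filters, leaving out each library and the replicate number as a block. The procedures were tested on simulated data. Counts ran from 31788351 to 51505597 a library, so for most of these genes counting error is small beside the spread between libraries.

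The genes and lists were chosen with earlier results of these data known. Named were the 6 largest falls or rises past the threshold in each experiment (all, if fewer), up to 3 with the smallest p where few passed, the 4 with the smallest p in each contrast, the 5 highest and the 5 lowest levels per length, genes with a second copy and genes of fixed roles. Named after their values were seen were RpS29, RpL4, RpL15 and some genes of the lists. Of the 5 highest levels, 1 is not reported here.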

Additional observations from a re-analysis of the deposited data

Results flagged for a closer look

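In 5 genes the effect in the libraries labelled GAF RNAi was higher than that of Osa overexpression by a test of the difference itself (edgeR, 1 fit of 14 libraries, adjusted over 11181 genes). Of all genes tested 1.68% were called higher, and the count of 5 moved with single libraries, as given above. RpL34a, 1 of the 2 genes for its protein, differed by 1.12 on the log2 scale, with 353, 379 and 386 CPM in GAF RNAi libraries against 324, 309.9 and 269 CPM in their controls, and 153 and 175 CPM in Osa overexpression libraries against 264 and 319 CPM in theirs. RpL32 differed by 1.13, with 603, 718 and 657 CPM in GAF RNAi libraries against 685, 547 and 518 CPM in controls, and 371 and 445 CPM in Osa overexpression libraries against 719.9 and 880.4 CPM in controls. RpL11 differed by 1.03, with 779, 969.6 and 885 CPM in GAF RNAi libraries against 911, 818 and 739 CPM in controls. RpS23 differed by 1.01, with 947, 1122 and 1050.4 CPM in GAF RNAi libraries against 1046, 902 and 898 CPM in controls, and 636 and 744 CPM in Osa overexpression libraries against 1182 and 1393 CPM in controls. RpS27 differed by 1.01. In all 5 the Osa groups did not overlap, which held for all 77 tested genes of the set. Of all genes tested 32.1% were lower there without overlap. In 4 the GAF groups overlapped (not in RpL34a), where 22.0% of all genes tested were higher without overlap. The GAF and Osa libraries come from separate experiments with controls of their own, so the experiment and the manipulation cannot be told apart. None of the 5 is 1 of the 7 genes that fell in the libraries labelled GAF RNAi.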

How the results depend on the processing

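For GAF, genes called lower were 11 with no filter, 1 with a mean of at least 5 CPM and 0 in the fit of all 14 libraries, where 11.4%, 17.2% and 6.77% of all genes were. Genes called higher were 1 by library size only, 3 with at least 5 CPM and 1 by DESeq2, where 12.0%, 14% and 14.7% were. In the fit of all libraries 12 were called lower for HDAC1 RNAi and 50 for Osa overexpression, where 1.14% and 2.73% were. The GAF median was -0.04 with at least 5 CPM, and scaled by library size only the Osa median was -0.55. The GAF and Osa effects differed in 3 genes by library size only, 12 with no filter, 41 by DESeq2 and 11 by limma-voom. Of all genes 0.93%, 2.27%, 6.42% and 1.78% were then called higher, and 1.25%, 2.17%, 4.37% and 1.21% lower. The GAF and HDAC1 effects differed in 3, 3, 16 and 2 genes in that order. Of all genes 1.06%, 1.3%, 3.25% and 1.4% were then called higher, and 2.19%, 2.11%, 3.69% and 2.03% lower. The large minus small subunit difference of medians, in log2, was -0.018 (no filter) and -0.024 (all libraries) for GAF, -0.029 (at least 5 CPM) for HDAC1, and -0.013 (no filter) and 0.0016 (all libraries) for Osa; the HDAC1 ratio of the subunits reversed to -0.062 as a difference of mean log2 CPM. That mean counts every gene alike, the nearly silent RpS28a and RpL37b included. The cause was not tested.

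Leaving out 1 library at a time, genes called lower ranged from 0 to 10 for GAF, 0 to 75 for HDAC1 and 40 to 77 for Osa, and higher from 0 to 5 for GAF. The contrast of GAF with Osa gave 0 to 52 and with HDAC1 0 to 40. The upper ends of both contrast ranges came from fits that left 1 HDAC1 RNAi library. In those fits larger shares of all genes were called as well than in the fit of all 14 libraries. The median log2 fold change ranged from -0.18 to -0.02 for GAF, -0.98 to -0.46 for HDAC1 and -0.90 to -0.73 for Osa. The difference of subunit medians ranged from -0.063 to 0.018 for GAF, -0.066 to -0.015 for HDAC1 and -0.015 to 0.020 for Osa, and the subunit ratio from -0.036 to -0.018 for GAF, -0.011 to 0.026 for HDAC1 and 0.0078 to 0.042 for Osa.

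Whether the replicate numbers pair libraries was read from the deviations of libraries from their group means. In the GAF experiment same-numbered libraries had correlations of -0.137 to 0.0079, and differently numbered ones -0.103 to 0.101. Same-numbered libraries had 0.144 in the HDAC1 and 0.015 in the Osa experiment. With 2 libraries a group, crossed numbers give the same size with the opposite sign, so the HDAC1 and Osa values cannot decide the pairing. With the number as a block 6, 0 and 77 genes of the set were called lower for GAF, HDAC1 and Osa. Of all genes 14.2%, 1.28% and 11.3% were called lower in these fits. Without the block the HDAC1 share was 0.0971%. Without the 9 genes that share over 10% of their exonic bases, chosen after seeing the data, 5, 0 and 68 were called lower. Those counts come from the fits without a block, where 15.9%, 0.0971% and 12.2% of all genes were called lower.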
